A study of Rattus norvegicus with 2 samples.

Results

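The major histocompatibility complex (MHC) class I presentation genes were examined in cultured rat oligodendrocyte precursor cells (OPCs), the progenitors of the brain's myelin-forming cells. The genes were 10 entries, matched by gene symbol, of a deposited table of 17202 genes: B2m, RT1-A1, RT1-A2, RT1-N3, RT1-T24-4, RT1-DMa, Tap1, Tap2, Tapbp and Nlrc5. Wild-type primary OPCs from rat brain were grown in OGM medium and given 1 µM amyloid-beta (Aβ), the peptide of Alzheimer's disease plaques, for 2 days, or the solvent DMSO. The treatment text covers Aβ alone, so the time in DMSO is not given separately. Each condition gave 1 library, and the labels do not say how many animals or dishes went into either. The labels describe both adult OPCs and developing animals, and both titles carry an unexplained P1, so the age of the donors is not known.

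Class I molecules show short peptides from inside the cell to cytotoxic T cells. Peptides cut by the proteasome are carried into the endoplasmic reticulum by the TAP transporter, loaded with the help of tapasin onto a heavy chain paired with beta-2-microglobulin, and moved to the cell surface. In the rat the MHC is called RT1, and its class I heavy chains form a large family of near-copies. Cells of the oligodendrocyte lineage express little class I at rest, and interferon-gamma is a known inducer of it. RT1-DMa differs from the other 9 in its role, since it encodes a chain of the class II peptide loader DM.

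Estimated counts summed to 15117113 with Aβ and 15019418 with DMSO after rounding. Levels between genes are given as the authors' TPM, which is per transcript length. Ratios are Aβ over DMSO in CPM (counts scaled to library size), with exact 95% Clopper-Pearson intervals that hold counting error alone. No test was possible without replicates, no p-value is given and no difference has a replicate check. Measured genes are those that reached 1 CPM in either library, which held for 13505 genes and for all 10 class I presentation genes. All 6 listed OPC markers were measured, the highest being Olig1 at 850 TPM with Aβ and 841 TPM with DMSO, while Cspg4 (NG2) had 14.4 TPM with Aβ and 13.2 TPM with DMSO. The astrocyte marker Gfap was as abundant, at 839 TPM with Aβ and 793 TPM with DMSO, so the cultures also held transcripts typical of astrocytes.

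All of the 10 genes except RT1-DMa were at similar levels in both libraries, with ratios from 0.928 for RT1-N3 to 1.19 for Tap1. RT1-DMa was listed at a ratio of 0.112, with most of the gap matched by another entry of the table, as described further on. Of the 10 genes, 6 had a ratio above 1 and 4 below, and their median log2 ratio was 0.079, beside -0.00078 over all measured genes. Genes were called higher or lower at a log2 ratio of 1 or beyond in either direction, taken with 0.5 CPM added, provided that the interval excluded a ratio of 1. By this rule 1 of the 10 was called, RT1-DMa, beside 0.674% of all measured genes (0.267% higher and 0.407% lower with Aβ). With 1.5-fold in place of 2-fold it was again 1 of the 10, beside 1.73%. For 7 of the 10 the interval stayed within 1.5-fold on either side, beside 80.1% of measured genes.

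**Figure D1:**
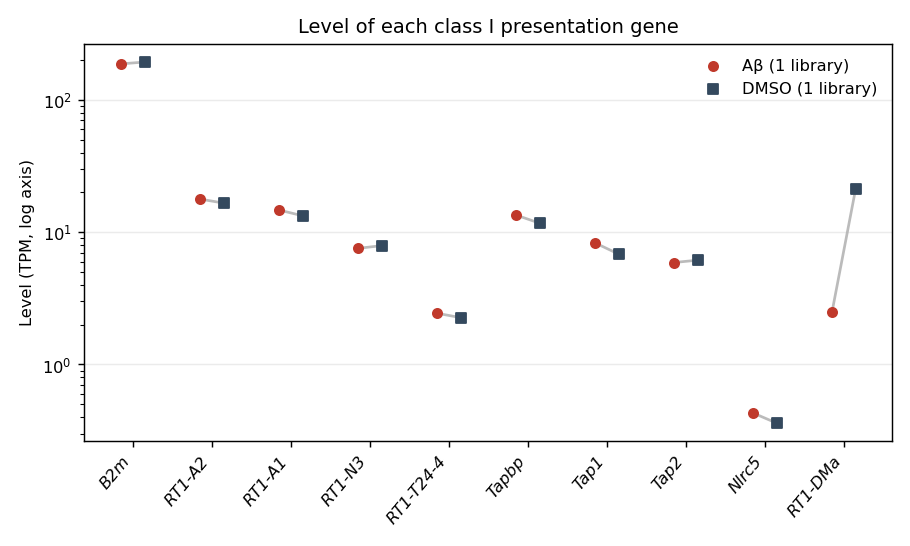
Level in TPM (log axis) of each of the 10 genes, with Aβ as circles and DMSO as squares, 1 library each. B2m stands at 188 TPM with Aβ and 194 TPM with DMSO, Nlrc5 at 0.43 TPM with Aβ and 0.36 TPM with DMSO, and the RT1-DMa points lie furthest apart.

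The light chain B2m, shared by every class I molecule, was by far the most abundant of the 10. It had 3005 counts with Aβ and 3155 counts with DMSO, which is 188 TPM with Aβ and 194 TPM with DMSO. With DMSO, 94.5% of measured genes had a lower TPM. Its ratio was 0.945 (interval 0.898 to 0.993), slightly lower with Aβ. The interval left out 1 on counting error alone, as it did for 13.4% of measured genes. Among the 5050 genes at 50 CPM or more on average, 25.7% lay at least as far from 1 as B2m, so a difference of this size was common between these 2 libraries.

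The classical heavy chains RT1-A1 and RT1-A2 present peptides to cytotoxic T cells and stood next to each other in level. RT1-A2 had 234.32 estimated counts with Aβ and 221.96 with DMSO, at 17.8 TPM with Aβ and 16.6 TPM with DMSO. RT1-A1 had 193.13 estimated counts with Aβ and 177.25 with DMSO, at 14.7 TPM with Aβ and 13.3 TPM with DMSO. Both were slightly higher with Aβ, with ratios of 1.05 (0.866 to 1.26) for RT1-A2 and 1.08 (0.877 to 1.33) for RT1-A1, and both intervals held 1. Their counts are fractional, as arises when reads that match several transcripts are divided between them, so the split between the entries is uncertain. The sum of both is less exposed to that split and had a ratio of 1.06 (0.924 to 1.22), from 427.45 counts with Aβ and 399.21 with DMSO. This sum is itself fractional in both libraries, so a split with entries outside the pair may remain.

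The likeness of RT1-A1 and RT1-A2 extends to the DNA upstream of their start sites, shown here because these elements are known as control points of class I genes. The sequences are from RefSeq on build GRCr8, while the submitters' processing notes name Rnor_6.0 for the expression data. Capitals mark enhancer A, the NF-kB motif of class I promoters, searched as GGGG and CCCC with any 3 bases between, and CCAAT boxes on either strand, and each window ends 2 bases past the last of these. Both lie on the plus strand, RT1-A1 at chr20:4907063-4907208 and RT1-A2 at chr20:4872677-4872821.
RT1-A1: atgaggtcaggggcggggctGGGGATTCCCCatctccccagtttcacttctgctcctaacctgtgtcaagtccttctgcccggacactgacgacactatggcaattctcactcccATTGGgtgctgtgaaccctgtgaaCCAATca
RT1-A2: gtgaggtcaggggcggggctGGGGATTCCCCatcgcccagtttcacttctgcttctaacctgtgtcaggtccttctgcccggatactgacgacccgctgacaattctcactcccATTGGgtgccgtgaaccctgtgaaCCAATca
Aligned end to end, the windows had 135 identical positions, 10 mismatches and 1 gap, an identity of 92.5%. In the 250 bases before the start, enhancer A was found in 0.822% of 33469 rat promoters and in 2 of the 9 class I presentation genes with a promoter in the table, RT1-A1 and RT1-A2. These 2 are near-copies and not separate finds. The motifs were chosen after the sequences had been seen, and they set the windows, so no enrichment is read from these shares. CCAAT on either strand was found in 34.0% of promoters and in 5 of the 9. No matches of different motifs overlapped in these 9 promoters.

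Interferon acts on class I genes through interferon regulatory factors, whose core motif is a repeat of GAAA. The letters GAAA, any 2 bases and GAAA, searched on both strands over the same 250 bases, were present in 3.41% of promoters and in 5 of the 9. RT1-A1 and RT1-A2 had no match. Only these exact letters were searched, so variants of the motif, in these or other promoters, would not have been found. The matches are in capitals below, with up to 20 bases on each side, and the motifs were chosen after the sequences had been seen.
B2m: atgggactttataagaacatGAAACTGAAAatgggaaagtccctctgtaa
RT1-N3: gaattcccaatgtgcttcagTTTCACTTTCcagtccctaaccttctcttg
Tap1: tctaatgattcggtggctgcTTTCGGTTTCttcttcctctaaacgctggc
Tap2: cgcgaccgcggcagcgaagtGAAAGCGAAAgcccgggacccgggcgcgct
Tapbp: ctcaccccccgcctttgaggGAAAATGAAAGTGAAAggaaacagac
The B2m window is chr3:129549160-129549209 and that of RT1-N3 chr20:2666262-2666311, both on the plus strand. Those of Tap1 (chr20:4668635-4668684), Tap2 (chr20:4652308-4652357) and Tapbp (chr20:4967878-4967923) are on the minus strand, and Tapbp holds 2 overlapping matches. The ratios of these 5 genes lay between 0.928 and 1.19, below 1 for B2m, RT1-N3 and Tap2 and above 1 for Tap1 and Tapbp.

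RT1-N3 and RT1-T24-4 belong to the nonclassical class I families. RT1-N3 had 117.35 estimated counts with Aβ and 125.49 with DMSO, at 7.55 TPM with Aβ and 7.92 TPM with DMSO (ratio 0.928, 0.715 to 1.20). Its near-copy RT1-N2 had 29.65 estimated counts with Aβ and 15.51 with DMSO (ratio 1.86, 0.982 to 3.65). The fractions of this pair complete each other: RT1-N3 and RT1-N2 summed to 147.00 counts with Aβ and 141.00 with DMSO, whole numbers in both libraries. Of 2297 other fractional entries, 2 completed RT1-N3 to within 0.015 of a whole number in both libraries, and RT1-N2 was the RT1 entry of these. Their estimated counts per TPM with Aβ differed by 17.8%, so the pairing rests on the whole sums and the names alone. The summed ratio was 1.03 (0.815 to 1.31), on the other side of 1 from RT1-N3 alone.

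RT1-T24-4 was the least abundant heavy chain of the 4, with 34.54 estimated counts with Aβ and 32.48 with DMSO, at 2.44 TPM with Aβ and 2.26 TPM with DMSO. Its ratio of 1.08 has a wide interval (0.652 to 1.81), so differences within that range were not detectable at this depth. With RT1-T24-1 and RT1-T24-3, the sum was 77.64 counts with Aβ and 87.31 with DMSO (ratio 0.889, 0.647 to 1.22). The fractions of this trio did not add up to whole counts.

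The table lists 23 RT1 class I entries in all, of which 15 were measured and 15 had fractional counts. Of the measured entries 7 had a ratio above 1 and 8 below, and none was called, beside 0.674% of measured genes. The lowest and highest ratios were 0.551 for RT1-T24-3 and 1.86 for RT1-N2. RT1-T24-3 and RT1-CE13, both below 1, reached 1 CPM with DMSO alone, so the split and the lowest ratio depend on the level filter. RT1-T24-3 had 9.55 estimated counts with Aβ and 17.94 with DMSO. Besides RT1-A1 and RT1-A2, abundant entries were RT1-CE5, a heavy chain of the C/E region, at 14.3 TPM with Aβ and 14.9 TPM with DMSO, and RT1-M3-1 at 11.98 TPM with Aβ and 13.81 TPM with DMSO. RT1-M3-1, whose mouse counterpart H2-M3 presents formylated peptides, had whole counts (125 with Aβ and 142 with DMSO, ratio 0.873, 0.681 to 1.12). RT1-CE13 was at 11.9 TPM with Aβ and 14.5 TPM with DMSO from only 14.96 estimated counts with Aβ and 17.72 with DMSO, so its level per length rests on few reads. RT1-CE7 had a ratio of 1.49 (0.817 to 2.76), RT1-S2 0.685 (0.411 to 1.13), RT1-S3 0.945 (0.652 to 1.37), RT1-CE4 1.07 (0.598 to 1.92), RT1-CE10 1.05 (0.520 to 2.12) and RT1-T24-1 0.911 (0.555 to 1.49).

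Added together, the class I heavy chains were at the same level in both libraries to within counting error. The 23 entries summed to 1200.80 counts with Aβ and 1199.80 with DMSO (ratio 0.993, 0.916 to 1.08). Neither sum is whole, so a split with entries outside the 23 may remain. The 4 heavy chains among the genes studied here held 48.2% of the summed counts with Aβ and 46.4% with DMSO. Their own sum had a ratio of 1.03 (0.916 to 1.16). B2m stood above the pooled heavy chains in TPM, by 1.86 times with Aβ and 1.91 times with DMSO.

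**Figure D2:**
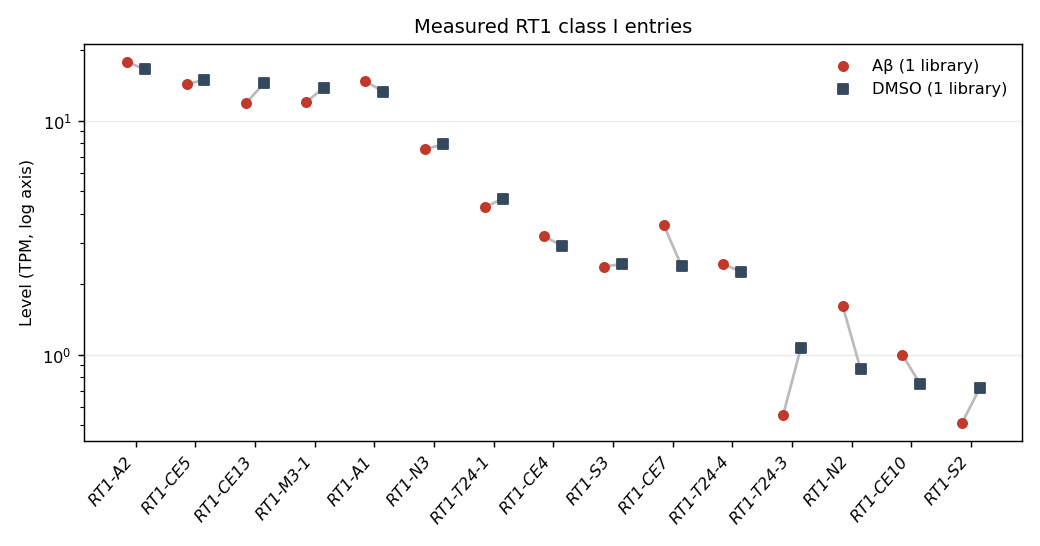
Level in TPM (log axis) of the 15 measured RT1 class I entries, with Aβ as circles and DMSO as squares, 1 library each, ordered by the DMSO level. The entries furthest apart, RT1-T24-3 and RT1-N2, are among the lowest and lie in opposite directions.

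Tap1 and Tap2 form the transporter that brings peptides into the endoplasmic reticulum. Tap1 had 208 counts with Aβ and 174 counts with DMSO, at 8.31 TPM with Aβ and 6.83 TPM with DMSO. Its ratio of 1.19 (0.965 to 1.46) was the highest of the 10, and 13.2% of measured genes lay at least as far from 1. Tap2 had 131.93 estimated counts with Aβ and 139.97 with DMSO, at 5.90 TPM with Aβ and 6.15 TPM with DMSO (ratio 0.935, 0.732 to 1.19). The subunits thus lay on opposite sides of 1, both with intervals that held 1, and they were similar in level per length.

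Tapbp encodes tapasin, which bridges the transporter and the empty heavy chain. It had 178 counts with Aβ and 157 counts with DMSO, at 13.5 TPM with Aβ and 11.7 TPM with DMSO (ratio 1.12, 0.902 to 1.40). Nlrc5, the transactivator that drives class I genes much as CIITA drives class II genes, was near the lower limit of measurement. It had 42 counts with Aβ and 36 counts with DMSO, at 0.43 TPM with Aβ and 0.36 TPM with DMSO (ratio 1.16, 0.724 to 1.86). Only 0.911% of measured genes had a lower TPM with DMSO. Of the 4 genes with whole counts (B2m, Tap1, Tapbp and Nlrc5), 3 were higher with Aβ and none was called, beside 0.102% of measured genes with whole counts.

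In TPM with DMSO the 10 genes ran in the order B2m, RT1-DMa, RT1-A2, RT1-A1, Tapbp, RT1-N3, Tap1, Tap2, RT1-T24-4 and Nlrc5. With Aβ, Tap1 stood above RT1-N3 and RT1-DMa was in eighth place, between Tap2 and RT1-T24-4. B2m was first and Nlrc5 last in both libraries, each several-fold from its neighbour. Without replicates the spread around each level is unknown, and whether the closer neighbours in this order differ beyond it was not tested.

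**Figure D3:**
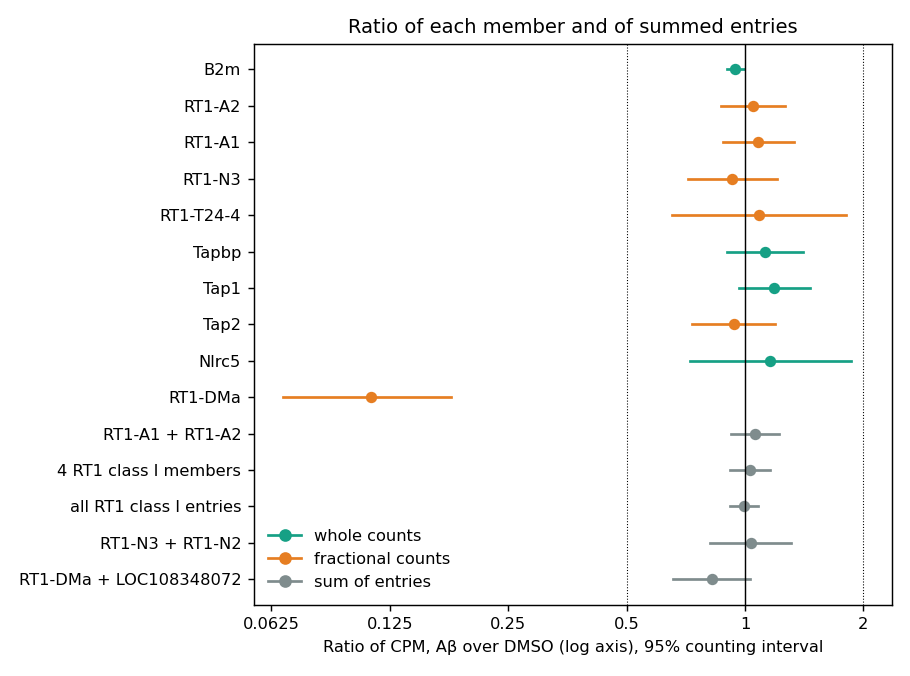
Ratio of CPM, Aβ over DMSO (log axis), for the 10 genes and for sums of entries, with 95% counting intervals; colours mark whole counts, fractional counts and sums, and dotted lines mark 0.5 and 2. All intervals but those of B2m and RT1-DMa hold 1, and the sum of RT1-DMa with LOC108348072 lies at 0.824.

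RT1-DMa encodes the alpha chain of DM, which exchanges peptides on class II molecules. It was listed with 20.34 estimated counts with Aβ and 177.00 with DMSO, at 2.49 TPM with Aβ and 21.4 TPM with DMSO. The ratio was 0.112 (0.0668 to 0.178) and the log2 ratio -2.75, and 0.126% of measured genes lay at least as far from 0. It was 1 of the 6 class I presentation genes with fractional counts, and 4.44% of measured genes with fractional counts were called, against 0.102% of those with whole counts.

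A second entry, LOC108348072, differed in the opposite direction. It had 126.66 estimated counts with Aβ and 0 with DMSO, and it was 1 of 3 fractional entries with at least 100 counts with Aβ and none with DMSO. RT1-DMa and LOC108348072 summed to 147.00 counts with Aβ and 177.00 with DMSO (ratio 0.824, 0.657 to 1.03). Of the 2297 other fractional entries, 14 completed RT1-DMa to whole counts in both libraries within 0.015. RT1-DMa is already whole with DMSO, where any entry with a whole count or 0 passes. The match of fractions therefore rests on the Aβ library alone. LOC108348072 was the only 1 of these 14 whose estimated counts per TPM, which follow transcript length, were within 2% of those of RT1-DMa (8.28 for LOC108348072 and 8.17 for RT1-DMa, with Aβ). The entry was singled out after its values were seen. RefSeq's GRCr8 gene table does not list its identifier, so what it encodes is not stated here. As the sum, RT1-DMa was not called, and none of the 10 genes was.

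**Figure D4:**
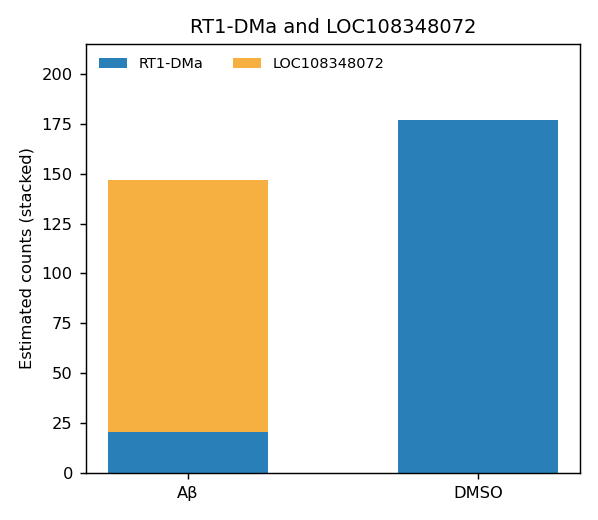
Estimated counts of RT1-DMa and LOC108348072, stacked, in the Aβ library and the DMSO library. The bars reach 147 with Aβ and 177 with DMSO, and LOC108348072 is at 0 with DMSO.

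The other class II chains listed in the table and their transactivator were close to absent in both libraries. RT1-DMb, the beta chain that pairs with RT1-DMa, had 2 counts in each library, and the class II transactivator Ciita had 4 counts with Aβ and 0 with DMSO. RT1-Ba and RT1-Bb, chains of a classical class II molecule, had 1 count each with Aβ and 0 with DMSO. Of 14 genes listed for class II presentation 11 were in the table and 3 were measured: RT1-DMa and the lysosomal proteases Ctsl (ratio 1.07, 1.00 to 1.13) and Lgmn (1.02, 0.930 to 1.11). Cd74, RT1-Da and RT1-Db1 were not in the table, so their levels are not known. Microglia and macrophages are the brain cells best known for class II genes, and their markers were low. The 17 markers together had 31.2 TPM with Aβ and 39.6 TPM with DMSO, and the highest, Fcer1g, had 5.70 TPM with Aβ and 7.49 TPM with DMSO. All 8 measured ones had a ratio below 1, from 0.520 (0.226 to 1.13) for C1qa to 0.934 (0.558 to 1.56) for Laptm5, and all 8 intervals held 1. Of these, C1qa and Itgam reached 1 CPM with DMSO alone. Markers under 1 CPM in both libraries went both ways. C1qb (ratio 1.54, 0.622 to 4.04), C1qc, P2ry12 and Trem2 were above 1, and Ptprc, Cx3cr1, Spi1, Tmem119 and Tyrobp below it. The microglial receptors Cx3cr1 and P2ry12 had 5 and 8 counts with Aβ and 7 and 5 counts with DMSO. The part of these cells in the RT1-DMa values was not tested, and in bulk RNA fewer cells of a type and less RNA per cell cannot be told apart.

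**Figure D5:**
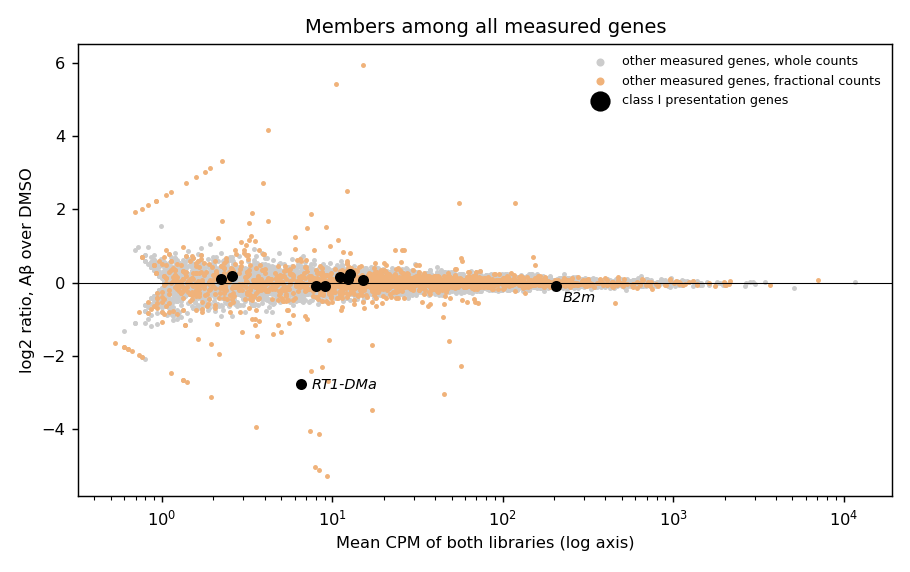
log2 ratio, Aβ over DMSO, against the mean CPM of both libraries (log axis) for all 13505 measured genes, with the 10 class I presentation genes in black and genes with fractional counts in orange. RT1-DMa lies at -2.75, and the other 9 lie within the band of genes with whole counts.

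Genes that supply and fold class I molecules were at similar levels in both libraries. Of 11 genes for chaperoning, translocation and trimming, 7 had a ratio above 1 and 4 below. None was called, beside 0.674% of measured genes, and all 11 intervals lay within 1.5-fold, beside 80.1%. The median log2 ratio was 0.011. Calr, the chaperone calreticulin of the loading complex, was the most abundant at 510 TPM with Aβ and 493 TPM with DMSO (ratio 1.01, 0.977 to 1.04). Its partner in the complex, the oxidoreductase Pdia3, had 464 TPM with Aβ and 458 TPM with DMSO (0.987, 0.956 to 1.02). Tapbpl, the tapasin relative TAPBPR that edits bound peptides, was furthest from 1 at 1.19 (0.958 to 1.47), followed by the trimming peptidase Erap1 at 1.06 (0.932 to 1.21). Hspa5, the chaperone BiP, had an interval above 1, at 1.06 (1.02 to 1.10).

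Immunoproteasome subunits, which favour the cutting of class I peptides, were present at moderate levels. Of 5 genes of the immunoproteasome and its activator PA28, 3 had a ratio above 1 and 2 had one below it. The median log2 ratio was 0.086, and none was called, beside 0.674% of measured genes. Psmb9, a catalytic subunit encoded beside Tap1, had 118 counts with Aβ and 97 counts with DMSO (1.21, 0.915 to 1.60). The activator chains Psme1 and Psme2 had ratios of 1.06 (0.972 to 1.16) and 1.10 (0.967 to 1.26), and the catalytic subunit Psmb8 0.961 (0.669 to 1.38). The constitutive subunits Psmb5, Psmb6 and Psmb7 were more abundant, and their ratios lay between 0.973 and 1.01.

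Among 16 measured regulators of class I genes, Nlrc5 included, 7 had a ratio above 1 and 9 below. None was called, beside 0.674% of measured genes, and the median log2 ratio was -0.016. Irf1, an interferon-induced activator of class I genes, had 240 counts with Aβ and 236 counts with DMSO (1.01, 0.839 to 1.21). Irf2, a factor of the same family, had a ratio of 0.889 (0.780 to 1.01). The RFX subunits bind MHC promoters together. Rfx5 had 1542 counts in each library (0.992, 0.924 to 1.07), and Rfxank had a ratio of 0.864 (0.712 to 1.05) with fractional counts. Rfxap was furthest from 1, at 0.576 (0.371 to 0.882), also with fractional counts. Summed with the entry Rfxapl1, named after its values were seen, it had 578.00 counts with Aβ and 536.00 with DMSO (ratio 1.07, 0.949 to 1.21).

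Receptors and kinases of interferon signalling were all measured, with 2 of 7 above 1, 5 below it and a median of log2 ratios at -0.10. Ifngr2, a chain of the interferon-gamma receptor, had 442 counts with Aβ and 507 counts with DMSO (ratio 0.865, 0.759 to 0.984). Ifnar1, a chain of the type I interferon receptor, had a ratio of 1.06 (1.00 to 1.12), and Ifnar2 and Ifngr1 0.923 (0.822 to 1.04) and 0.924 (0.831 to 1.03). None of the 7 was called, beside 0.674% of measured genes, and all intervals lay within 1.5-fold, beside 80.1%. Class I-like molecules were low, with 4 of 6 measured and a median log2 ratio of 0.14. Fcgrt, the neonatal Fc receptor, led at 15.1 TPM with Aβ and 15.3 TPM with DMSO (0.961, 0.793 to 1.16). Mr1, which presents vitamin metabolites, had a ratio of 1.20 (0.741 to 1.94), Cd1d1, which presents lipids, 1.15 (0.794 to 1.67), and Hfe, a regulator of iron uptake, 1.11 (0.546 to 2.27).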

How the data were processed

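RNA was sequenced in 1 Aβ and 1 DMSO library, grouped by the treatment in the labels. Per the submitters' processing notes, Bowtie2 and build Rnor_6.0 were used; for quantifier, annotation and strand setting, names were not given in the sources used here. In 1 table, the authors deposited estimated counts (expected counts, which need not be whole), TPM, FPKM and a normalized read count, a signal column; the last pair was not used. Counts were rounded, and CPM taken on TMM effective library sizes (edgeR 4.0.16, R 4.3.3). A pseudocount of 0.5 CPM was added for log2 ratios, which understates differences of low genes. Intervals (SciPy 1.17.1) are conditional on the sum of both counts and hold counting error alone. No test was run, since each group had 1 library. Counts within 0.005 of a whole number were taken as whole.

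The interval and calling steps were tested on simulated whole counts with counting error alone. The simulation held no divided reads and no variation between cultures, so it does not bear on either. RT1 entries were classed by symbol. The genes and lists were chosen with earlier results of these data known. Named were all 10 genes, every other measured RT1 entry, and up to 4 genes per list with the largest log2 ratio plus up to 2 with the highest TPM; others were chosen after their values were seen. Alternatives were DESeq2 1.42.0 size factors, TPM, unrounded counts, a pseudocount of 5 CPM, other level filters, whole counts alone and a 1.5-fold rule. Markers of astrocytes, endothelium, fibroblasts, neurons and lymphocytes were also listed.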

Additional observations from a re-analysis of the deposited data

How the results depend on the processing

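Of 133 alternative values, 128 stayed within the counting interval (for medians, the interval of the median over genes) or, for counts, at the same count, and no called value changed sign. For the shortest lists, such as class II presentation with 3 measured genes, that interval was the full range of the genes. A median can hardly leave such a range. Several alternatives could also hardly move a value. Without a level filter the median of the 10 genes was 0.079, as in the main setting, since all 10 were measured. With DESeq2 size factors it was 0.085. The count of 128 is therefore a weak check. The count of class I presentation genes called was 1 under 7 alternatives; it was 0 with whole counts alone, which leaves out RT1-DMa, and 0 with RT1-DMa summed with LOC108348072, chosen after seeing the data. The log2 ratio of RT1-DMa was -1.41 with a pseudocount of 5 CPM and -0.27 as that sum. The median log2 ratio of the 10 genes ran from 0.042 to 0.17 over its 9 alternatives, and that of class I regulators changed sign to 0.024 with TPM, beside 0.037 for all genes on that scale. RT1-N3 changed side of 0, to 0.046, when summed with RT1-N2. Medians of RT1 class I entries, class II genes and class I-like molecules changed sign with the level filter. No paired analysis was possible because each group has 1 sample, and no library could be left out for the same reason. Depth limits RT1-T24-4 and Nlrc5, at under 50 counts in each library, and RT1-DMa, at 20.34 counts with Aβ.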

Other observations

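Markers of other cell types were also present. Those of neurons summed to 460 TPM with Aβ and 441 TPM with DMSO, most of it Tubb3 at 372 TPM with Aβ and 353 TPM with DMSO, while Slc17a7 had a ratio of 0.775 (0.573 to 1.04). Astrocyte markers summed to 2231 TPM with Aβ and 2118 TPM with DMSO. Of these 8 markers, 3 had an interval above 1 (Gfap at a ratio of 1.03, S100b at 1.06 and Slc1a3 at 1.03) and 1 below it, Aldh1l1 at 0.883 (0.809 to 0.963). Over all measured genes 13.4% of intervals left out 1. Gfap had 21078 counts with Aβ and 20300 with DMSO, so its counting interval is narrow (1.01 to 1.05) and excludes 1 at a small difference. Endothelial markers summed to 1.04 TPM with Aβ and 1.21 TPM with DMSO, those of fibroblasts and pericytes to 5.37 TPM with Aβ and 4.93 TPM with DMSO (Col1a2, with fractional counts, had a ratio of 1.58, 1.19 to 2.11), and those of lymphocytes, for which 3 of 7 genes were in the table, to 1.13 TPM with Aβ and 1.08 TPM with DMSO. No marker gene of any of these lists was called, beside 0.674% of measured genes.

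Entries like LOC108348072, with fractional counts of at least 100 in 1 library and 0 in the other, numbered 3 with Aβ as the high library and 4 with DMSO as the high library, of 2298 fractional entries.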
